A study of Homo sapiens with 3 samples.

Results

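AP-1 is a family of transcription factors whose members bind DNA only as dimers, and the genes described here are 10 that encode its subunits and near relatives. They are FOS, FOSB, FOSL1 and FOSL2 of the FOS family, JUN, JUNB and JUND of the JUN family, the ATF family gene ATF3, and the small MAF genes MAFF and MAFK. They were chosen by gene symbol, and 10 of the 10 symbols were found among 19049 genes of the deposited table. The cells were MDA-MB-231, a basal-like breast cancer line. In all 3 groups their own KAP1, the corepressor encoded by TRIM28, was knocked down by a short hairpin, and 1 of 3 forms of KAP1 was put back. S473D carries aspartate at the serine under study, a residue whose charge mimics phosphorylation, S473A carries alanine, which cannot be phosphorylated, and wt carries the unchanged protein. Each form gave 1 library from cells grown in medium with fetal bovine serum. The labels do not say whether a library came from 1 clone or a mixed population. The comparisons ask how AP-1 transcript levels differ between cells with the S473D, S473A and wt forms.

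JUN proteins can pair with each other or with FOS and ATF proteins, whereas FOS proteins need a JUN partner to bind DNA. JUN and FOS dimers recognise the sequence TGACTCA, known as the TPA response element, and dimers of JUN with ATF proteins prefer TGACGTCA, known as the cyclic AMP response element. The patterns TGANTCA and TGACNTCA searched for below are wider than these elements, since N is any base. FOS, FOSB, JUN, JUNB and ATF3 are immediate early genes that serum, growth factors or stress switch on briefly, while FOSL1, which encodes FRA-1, is kept high by sustained ERK signalling and is known as the dominant FOS family gene of basal-like breast cancer cells. Small MAF proteins have no activation domain of their own and act mostly as partners of NFE2L and BACH proteins.

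The deposited values are log2 RPKM, read numbers scaled by gene length and by library depth, and they were turned back to RPKM. Because of the scaling by length, RPKM was used to compare genes as well as libraries. Depths were estimated from low values, by their commonest ratios between libraries and the wt depth that brought them nearest to whole read numbers. The estimates were 23900000 reads for S473D, 29300000 for S473A and 25700000 for wt. No group had a second library, so differences carry no replicate error or p-value and each describes a pair of libraries. Intervals given after values are exact 95% intervals for counting error only. RPKM of a bulk library cannot tell fewer cells with a transcript from less transcript per cell. The depleted and restored gene TRIM28 stood at 25.6 RPKM in S473D, 32.3 in S473A and 28.7 in wt, and the values do not separate its endogenous from its restored transcript. The part of that spread in the AP-1 differences was not tested. Of 8 genes usually high in this line, 8 were above 1 RPKM in every library, led by VIM at 673 to 740 RPKM, and of 7 listed as usually low, PGR, ESR1, CDH1 and EPCAM were below 1 RPKM. The other 3 were above it, with ERBB2 at 5.34 RPKM in S473D, 7.5 in S473A and 7.94 in wt, GATA3 at 1.45, 1.83 and 1.72 and FOXA1 at 1.49, 1.96 and 1.41 in the same libraries. Markers of fibroblasts were below 1 RPKM in every library except COL1A1 (1.63 to 1.66 RPKM), and the leukocyte genes PTPRC and CD14 were below 0.2 RPKM, whereas the lysosomal gene CD68, also listed as a leukocyte marker, was at 36.7 RPKM in S473D, 51.6 in S473A and 50.1 in wt.

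The control regions of 5 members are shown because AP-1 genes are known to be controlled by AP-1 and ATF proteins and because 3 of these genes (JUN, JUND and FOSL2) were lower in S473D while JUNB and MAFF stayed closer to wt. The sequences are RefSeq reference sequence of build GRCh38.p14, read 5′ to 3′ on the strand of the gene, and give the 250 bases before the annotated start. The deposited values were made on hg19, so the coordinates apply to the sequences alone. Capitals mark TGANTCA or TGACNTCA on either strand. The JUN window is chr1:58784048-58784297 (minus strand), JUND is chr19:18281623-18281872 (minus), FOSL2 is chr2:28392608-28392857 (plus), MAFF is chr22:38201744-38201993 (plus) and JUNB is chr19:12791236-12791485 (plus). The last line gives 30 bases of FOSL2 across its start, chr2:28392851-28392880.
JUN: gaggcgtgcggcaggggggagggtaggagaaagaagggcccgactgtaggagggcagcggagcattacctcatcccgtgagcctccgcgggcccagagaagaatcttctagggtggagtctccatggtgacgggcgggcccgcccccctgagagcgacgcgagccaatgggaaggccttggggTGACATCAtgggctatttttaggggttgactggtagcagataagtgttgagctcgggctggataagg
JUND: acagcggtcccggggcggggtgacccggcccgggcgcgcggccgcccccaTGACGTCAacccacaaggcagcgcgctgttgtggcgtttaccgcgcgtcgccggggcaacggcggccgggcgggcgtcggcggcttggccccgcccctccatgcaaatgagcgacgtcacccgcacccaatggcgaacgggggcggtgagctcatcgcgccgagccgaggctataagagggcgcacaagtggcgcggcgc
FOSL2: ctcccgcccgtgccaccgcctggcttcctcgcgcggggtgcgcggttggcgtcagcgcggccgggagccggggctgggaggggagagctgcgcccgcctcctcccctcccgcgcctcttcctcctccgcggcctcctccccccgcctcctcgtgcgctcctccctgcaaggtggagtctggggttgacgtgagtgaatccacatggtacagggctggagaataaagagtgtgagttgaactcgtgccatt
MAFF: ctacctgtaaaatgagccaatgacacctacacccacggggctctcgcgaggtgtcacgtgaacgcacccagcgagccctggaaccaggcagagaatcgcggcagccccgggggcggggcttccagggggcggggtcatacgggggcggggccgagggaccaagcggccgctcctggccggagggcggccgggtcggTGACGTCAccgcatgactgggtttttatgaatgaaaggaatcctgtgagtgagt
JUNB: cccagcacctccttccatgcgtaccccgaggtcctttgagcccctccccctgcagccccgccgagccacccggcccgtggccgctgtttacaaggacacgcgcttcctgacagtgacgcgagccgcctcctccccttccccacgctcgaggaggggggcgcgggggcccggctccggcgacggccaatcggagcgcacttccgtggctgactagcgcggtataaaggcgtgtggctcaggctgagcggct
FOSL2 start: tgccattgtagTGACTCAtctcgggcagag

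A RefSeq window from 250 bases before to 50 after the start was found for 8 of the 10 members, all except FOSL1 and MAFK. JUN holds TGACATCA, whose first base lies 67 bases before the start, and ATF3 holds the same letters 123 bases before it. JUND and MAFF hold the full TGACGTCA, 200 and 54 bases before the start. FOSL2 has TGACTCA with its first base at position 5 of the transcript. Neither TGANTCA nor TGACNTCA occurs in the windows of FOS, FOSB or JUNB. Of 35116 human windows of the same length, 7.71% hold TGANTCA, 7.72% hold TGACNTCA and 1.85% hold TGACGTCA, the last being a special case of the second. These shares are per window, and a gene can have several. ATF3 and MAFF have 2 windows each, with the match in 1. Counted per gene, 709 of 8598 genes averaging 1 RPKM or more hold TGACNTCA in a window and 343 hold TGACGTCA. All are matches of letters and not measured binding sites. Among 596 genes averaging 1 RPKM or more whose window holds TGANTCA, the median difference between S473D and wt on the log2(RPKM + 1) scale was -0.14, against -0.10 for the 8598 such genes with a window. For 343 genes with TGACGTCA it was -0.08.

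FOSL1 was the most abundant AP-1 transcript in every library. It stood at 131.7 RPKM in S473D (128 to 135), 186.4 in S473A (183 to 190) and 188.1 in wt (184 to 192). The S473D value lay below the other two, which overlapped within counting error. Among all genes its level ranked 455 in S473D, 236 in S473A and 237 in wt. The ratio of S473D to wt was 0.700 (0.676 to 0.725), and that of S473D to S473A was 0.706 (0.683 to 0.731). On the log2(RPKM + 1) scale used for all differences below, FOSL1 differed from wt by -0.51 in S473D and by -0.01 in S473A.

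FOSL2 encodes FRA-2, the other FOS family protein that lacks the strong activation domain of FOS. It had the lowest difference of the 10 genes, at 20.6 RPKM in S473D (19.9 to 21.3), 38.4 in S473A (37.5 to 39.3) and 40.4 in wt (39.4 to 41.3). Only the S473D library stood apart, with the other 2 near each other. The ratio of S473D to wt was 0.511 (0.490 to 0.532), a log2 difference of -0.94, which placed FOSL2 as number 19 from the lowest of 11571 genes. Against S473A the ratio was 0.537 (0.515 to 0.559), a log2 difference of -0.87 and number 28 from the lowest. The small gap between S473A and wt, a ratio of 0.951 (0.921 to 0.983), lay just outside counting error.

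FOS and FOSB, the classic immediate early members, had the lowest levels of the members. FOS had 1.33 RPKM in S473D (1.04 to 1.69), 1.32 in S473A (1.06 to 1.64) and 1.22 in wt (0.954 to 1.56), and the 3 intervals overlapped. FOSB had 0.237 RPKM in S473D (0.144 to 0.356), 0.171 in S473A (0.103 to 0.268) and 0.258 in wt (0.167 to 0.381), from about 19 to 25 estimated reads. A difference in FOSB was not detectable at this depth. FOSB was the 1 member that averaged below 1 RPKM and was left out of the counts of differences, which cover 9 members.

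**Figure D1:**
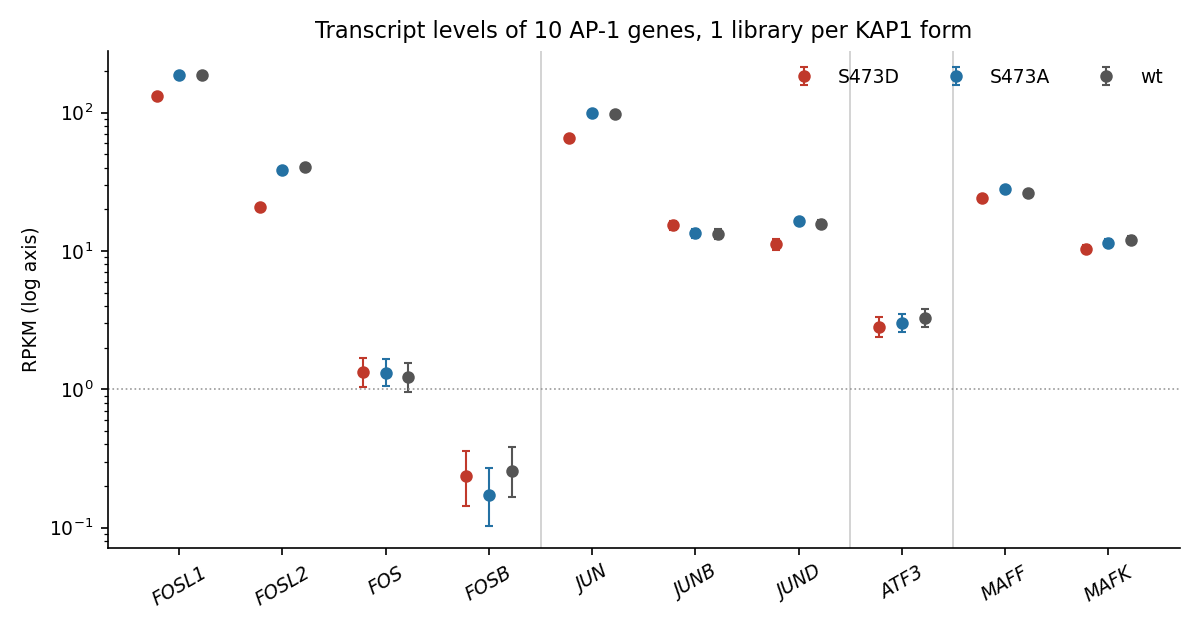
RPKM on a log axis for 10 AP-1 genes in the S473D, S473A and wt libraries, 1 point per library, with exact 95% counting intervals; the dotted line is 1 RPKM and grey lines divide the FOS, JUN, ATF and MAF groups. FOSL1, FOSL2, JUN and JUND are lower in S473D, and FOS and FOSB are at or below 1.33 RPKM in every library.

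JUN, whose protein is the founding JUN partner of AP-1, was second in level to FOSL1. It had 65.9 RPKM in S473D (64.1 to 67.6), 100.1 in S473A (98.2 to 102) and 98.2 in wt (96.1 to 100). S473D was again the low library, and S473A and wt overlapped. The ratio of S473D to wt was 0.671 (0.649 to 0.694), a log2 difference of -0.57, and that of S473D to S473A 0.658 (0.637 to 0.680), a difference of -0.60.

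JUND, which encodes the JUN protein usually made in resting cells, followed the same pattern at a lower level. It stood at 11.2 RPKM in S473D (10.2 to 12.2), 16.3 in S473A (15.3 to 17.5) and 15.7 in wt (14.6 to 16.9). Its ratio of S473D to wt was 0.712 (0.634 to 0.798) and of S473D to S473A 0.684 (0.611 to 0.764), log2 differences of -0.45 and -0.51.

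JUNB, an immediate early JUN gene whose protein is often a weaker activator than JUN, went the other way by a small amount. It had 15.3 RPKM in S473D (14.2 to 16.5), 13.4 in S473A (12.5 to 14.5) and 13.2 in wt (12.2 to 14.3). The levels in the 3 libraries were close, and the ratio of S473D to wt was 1.16 (1.04 to 1.29). In the RefSeq annotation JUNB overlaps the neighbouring gene HOOK2, and whether counting used the strand is not given in the sources used here, so reads of the 2 genes may be mixed. The order of the JUN genes therefore differed, with JUND above JUNB in S473A and wt and below it in S473D. The counting intervals of JUNB and JUND did not overlap in any of the 3 libraries.

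ATF3, a stress-induced factor that can repress or activate with JUN partners, was low throughout, at 2.83 RPKM in S473D (2.39 to 3.36), 3.01 in S473A (2.59 to 3.49) and 3.28 in wt (2.81 to 3.81). Its intervals overlapped in all 3 libraries. MAFF had 24.1 RPKM in S473D (22.8 to 25.4), 27.9 in S473A (26.7 to 29.2) and 26.3 in wt (25.1 to 27.6). MAFK had 10.3 RPKM in S473D (9.59 to 11), 11.5 in S473A (10.8 to 12.2) and 12 in wt (11.3 to 12.8). The small MAF genes were lowest in S473D, and their ratios of S473D to wt were 0.914 (0.851 to 0.982) for MAFF and 0.857 (0.781 to 0.940) for MAFK. MAFF overlaps TMEM184B and MAFK overlaps TMEM184A in RefSeq, so their values carry the same uncertainty as JUNB, and FOSL2 overlaps the antisense gene FOSL2-AS1.

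Against wt, S473D thus had 7 of the 9 members kept below 0 and 2 above (FOS at 0.07 and JUNB at 0.20). The members' median was -0.20, beside a median of -0.10 for all 11571 genes, of which 60.7% were below 0. By a rule of at least 1.5-fold on that scale, 1 member, FOSL2, was lower and 0 were higher, where 3.23% of all genes were lower and 6.83% higher. JUN at -0.57 was just outside that rule and FOSL2 at -0.94 inside it. By a rule of 2-fold 0 of the members were apart, where 1.09% of genes were. Centring on the median of all genes gives -0.84 for FOSL2, -0.47 for JUN, -0.41 for FOSL1, -0.35 for JUND and 0.30 for JUNB, and leaves ATF3, MAFF and MAFK between -0.10 and -0.02. The same centring changes the calls of all genes from 790 higher and 374 lower to 1105 higher and 128 lower.

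Against wt, S473A had no member apart, with 0 of 9 at 1.5-fold or 2-fold, where 0.242% and 0.0173% of all genes were. The members' differences ran from -0.09 (ATF3) to 0.08 (MAFF), 5 above 0 and 4 below, with a median of 0.02 beside 0.00 for all genes. For FOSL1 the ratio of S473A to wt was 0.991 (0.962 to 1.02) and for JUN it was 1.02 (0.991 to 1.05).

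S473D against S473A, a pair without the wt library, gave 2 members lower by at least 1.5-fold, FOSL2 and JUN, and 0 higher, where 3% of all genes were lower and 6.86% higher. JUN was within 1.5-fold with centring (-0.49), with a trimmed mean of log ratios (-0.49) and with trends on length and GC content removed (-0.42), and FOSL2 was just within it in the last of these (-0.58). At 2-fold 0 members were apart, where 1.13% of genes were. The members' median was -0.21, beside -0.10 for all genes. FOSL1 stood at -0.50, JUND at -0.51 and JUNB at 0.18. This pair and S473D against wt share the S473D library, so a departure of that library would appear in both.

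**Figure D2:**
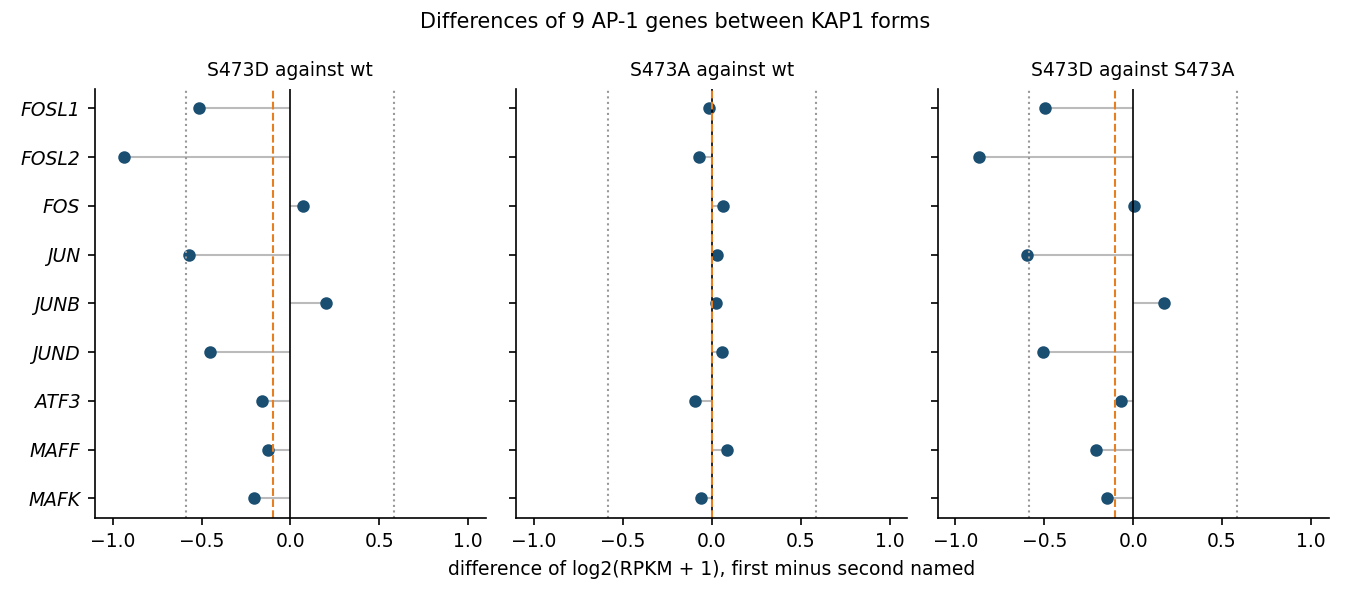
Differences of log2(RPKM + 1) for the 9 AP-1 genes kept, in the panels S473D against wt, S473A against wt and S473D against S473A; dotted lines mark 1.5-fold and the dashed line the median of all genes. FOSL2 lies at -0.94 and -0.87 in the panels with S473D, and the 9 points of S473A against wt lie between -0.09 and 0.08.

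The make-up of the family, as shares of RPKM, differed along with its total. Summed over FOS and JUN genes, RPKM was 246 in S473D, 356 in S473A and 357 in wt. FOSL1 gave 85.6% of summed FOS family RPKM in S473D, 82.4% in S473A and 81.8% in wt, and FOSL2 gave 13.4%, 17.0% and 17.6% in the same libraries. JUN gave 71.3% of JUN family RPKM in S473D, 77.1% in S473A and 77.3% in wt, while JUNB gave 16.6% in S473D, 10.3% in S473A and 10.4% in wt. The ratio of FOS family to JUN family RPKM was 1.67 in S473D, 1.74 in S473A and 1.81 in wt, and the ratio of MAFF to MAFK was 2.34, 2.43 and 2.19 in those libraries. These describe transcripts and not protein or dimers. The shares were not adjusted for the trends on length and GC content described below. With those trends removed, FOSL1 and FOSL2 had near-equal differences in S473D against wt, -0.63 and -0.64. JUN at -0.40 and JUNB at 0.16 remained apart.

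Differences between S473D and wt varied with transcript length across the genes kept with a known transcript. In 10 bins of length holding about equal numbers of these genes, the median difference ran from 0.37 in the shortest bin to -0.27 in the longest. For S473A against wt the bin medians lay between -0.01 and 0.00. FOSL2, with a transcript of 6708 bases, belongs to a bin with a median of -0.23. JUN, with 3540 bases, belongs to one with a median of -0.13. FOSL1 (1669 bases) and JUNB (1820) share a bin whose median is 0.14, and JUND (1863) is in a bin at 0.03. The GC content of FOSL1 was 60.0% and that of JUND 69.7%, against a median of 48.4% over all genes kept with a transcript.

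Removing smooth trends on length and GC content gave -0.64 for FOSL2, -0.63 for FOSL1, -0.40 for JUN and -0.39 for JUND in S473D against wt, beside a median of -0.10 for all genes. FOSL2 was less far from wt with the trends removed and FOSL1 was further, so that 2 members instead of 1 were at least 1.5-fold lower, where 3.31% of the genes with a transcript were lower and 1.70% higher. ATF3 stood at -0.27, against -0.16 without this step, JUNB stood at 0.16, and FOS, MAFF and MAFK lay between -0.07 and 0.02. Against S473A the corresponding values were -0.58 for FOSL2, -0.60 for FOSL1, -0.42 for JUN and -0.41 for JUND. What sets the trends in the S473D library was not tested.

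**Figure D3:**
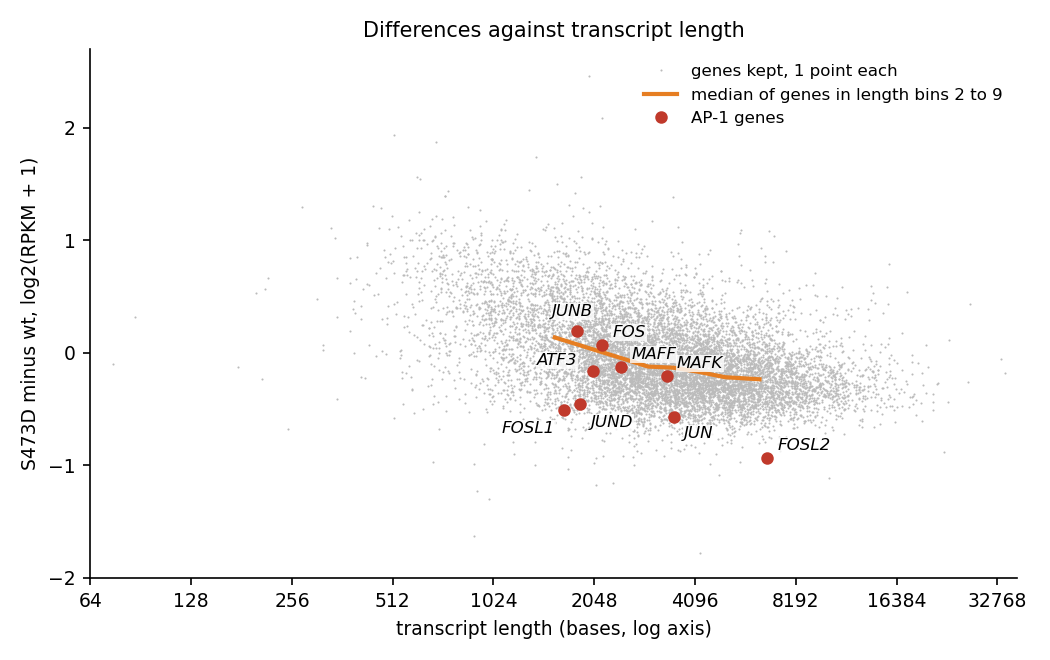
Difference of log2(RPKM + 1), S473D minus wt, against transcript length on a log axis. Grey points are genes averaging 1 RPKM or more with a known transcript. The orange line joins bin medians and red points are the AP-1 genes kept. FOSL2 lies at -0.94 at 6708 bases and FOSL1 at -0.51 at 1669 bases, both below the line.

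**Figure D4:**
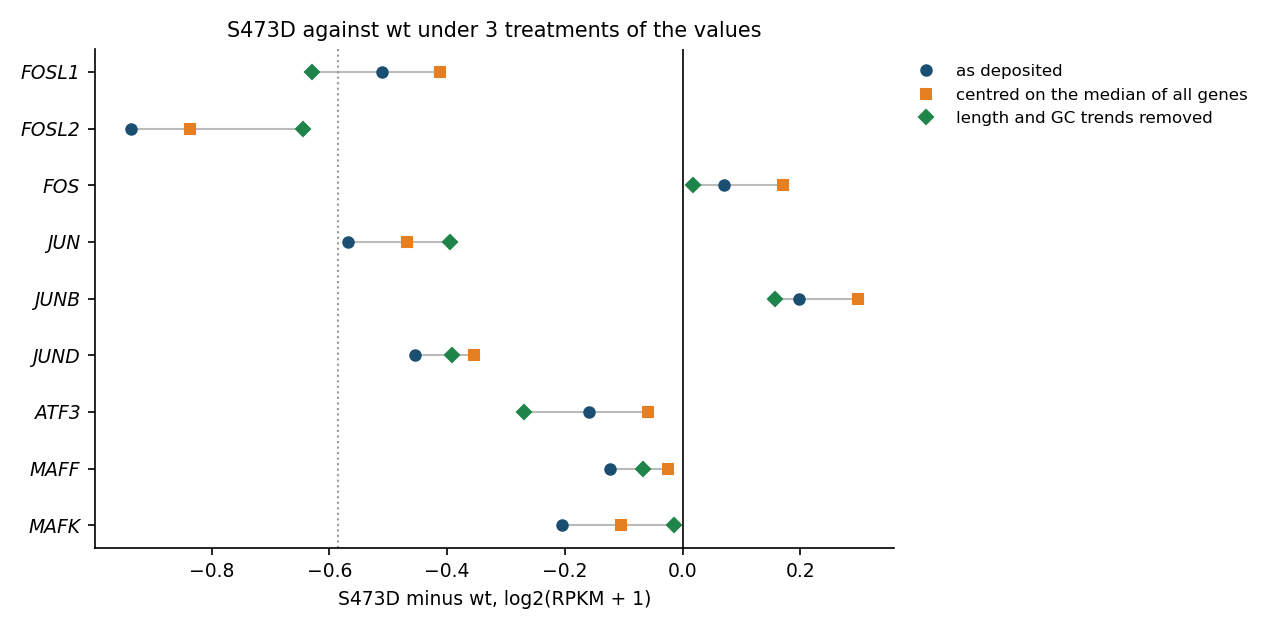
Difference of log2(RPKM + 1), S473D minus wt, for the 9 AP-1 genes kept. Points show it unadjusted (labelled as deposited), centred on the median of all genes and with trends on length and GC content removed. The dotted line marks 1.5-fold lower. FOSL2 lies left of it in all 3 treatments, from -0.94 to -0.64, and FOSL1 only with the trends removed, at -0.63.

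Among 8123 genes averaging 5 RPKM or more, those nearest to FOSL2 in the pair of differences S473A minus wt and S473D minus wt were NCK2 (an SH2 and SH3 adaptor gene, at a distance of 0.04), SLC7A5 (an amino acid transporter gene, 0.05), BCL3 (an atypical IkB gene, 0.06), IGF2BP2 (an mRNA-binding protein gene, 0.06) and the nuclear noncoding RNA NEAT1 (0.06). Their differences between S473D and wt ran from -0.99 for SLC7A5 to -0.88 for IGF2BP2 and NEAT1. With the trends removed they ran from -0.92 for BCL3 to -0.72 for SLC7A5, beside -0.64 for FOSL2. In all, 10 genes lay within 0.1 of FOSL2, whereas 699 lay within 0.1 of JUNB, the member with the highest difference among those with at least 5 RPKM. The 5 nearest to JUNB were ARL6IP6, C17orf62, MEMO1, RBM8A and TEX10, at distances of 0.00 to 0.01. Such likeness rests on 3 libraries, and the distances were taken without trend removal.

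Other bZIP genes that share partners or sites with AP-1 went both ways in S473D against wt. For this and the lists that follow, the values over all genes in that comparison are 60.7% below 0 and a median of -0.10. At least 1.5-fold higher were 6.83% of all genes, and at least 1.5-fold lower were 3.23%. Of 29 listed, 21 passed the filter, with 6 above 0 and 15 below and a median of -0.17. DDIT3, a stress-induced C/EBP relative, stood at 35.1 RPKM in S473D against 19.8 in wt (0.80), and CREM, a cyclic AMP response gene, at 50.7 against 30.9 (0.70), the 2 genes of the list that were 1.5-fold higher. NFE2L1, a small MAF partner gene, was 1.5-fold lower, at 50.9 RPKM in S473D against 77.0 in wt (-0.59), and ATF5 stood at -0.54. With the trends removed DDIT3 stood at 0.35, CREM at 0.40 and NFE2L1 at -0.33. In S473A against wt 0 of 21 were 1.5-fold apart, where 0.242% of all genes were. The differences ran from BATF3 (-0.13) and BACH1 (-0.10) to CREM (0.09) and ATF7 (0.12).

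Of 31 kinase genes of the ERK, JNK and p38 cascades upstream of AP-1, 26 were below 0 in S473D against wt (median -0.26, beside -0.10 and 60.7% below 0 for all genes), and 1 was 1.5-fold lower, RPS6KA2 at 1.53 RPKM in S473D against 2.83 in wt. The ERK1 gene MAPK3 stood at 13.2 RPKM in S473D against 18.9 in wt (-0.48) and ARAF, a RAF kinase gene, at -0.43, while the JNK1 gene MAPK8 stood at 0.18 and the p38 gene MAPK14 at 0.08 (0.12 and 0.15 with the trends removed). Of 9 genes for SRF, its cofactors and the MEF2 and TEAD factors, which bind promoters of FOS and JUN genes, 9 were below 0 and 0 were 1.5-fold apart (median -0.36, beside -0.10 for all genes), from MEF2D (-0.50) and TEAD1 (-0.41) to MEF2A (-0.19) and SRF (-0.19). With the trends removed MEF2D stood at -0.19, TEAD1 at -0.51 and SRF at 0.07. The medians were then -0.17 for the kinases and -0.21 for the SRF list, beside -0.10 for all genes. Only 7 of the 9 genes of the SRF list had a known transcript, so its 2 medians cover different genes. Of 11 genes for turnover of JUN and FOS proteins 8 were below 0 (median -0.23), where 60.7% of all genes were. With the trends removed the median was -0.15 over the 10 of them with a known transcript. COPS5, which encodes the JUN coactivator JAB1 of the COP9 signalosome, was at 58.0 RPKM in S473D against 32.9 in wt (0.80, or 0.38 with the trends removed). SKP1 stood at 0.51 (0.60 with the trends removed) and CUL4A, a ubiquitin ligase scaffold gene, at -0.51 (-0.47 with the trends removed).

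In S473A against wt these lists stayed near 0. Their medians were 0.00 for the kinases, 0.03 for the SRF list and 0.02 for the turnover list. In each list 0 genes were 1.5-fold apart, where 0.242% of all genes were. The lowest and highest named were MAPK3 (-0.15), ARAF (-0.08), MAPK14 (0.08) and MAP2K5 (0.10) among kinases. They were ELK4 (-0.05), TEAD1 (-0.02), MEF2D (0.04) and ELK1 (0.07) in the SRF list, and RFWD2 (-0.04), ITCH (-0.01), COPS5 (0.05) and CUL4A (0.09) in the turnover list.

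Of 27 immediate early genes other than AP-1 members, 19 passed the filter, with 15 below 0 and 4 above in S473D against wt (median -0.20), beside 60.7% of all genes below 0 and their median of -0.10. With the trends removed the median of the list was -0.13, beside -0.10 for all genes. KLF10, a TGF-beta-induced zinc finger gene, was at 12 RPKM in S473D against 19.7 in wt (-0.67) and KLF6 at 12.8 against 19.7 (-0.58), while the stress gene GADD45B was at 40.6 against 25.7 (0.64, or 0.42 with the trends removed) and SGK1 at 14.2 against 11.7 (0.26). EGR1, the gene for a serum-induced zinc finger factor, was low like FOS, at 1.77 RPKM in S473D, 2.35 in S473A and 2.22 in wt. In S473A against wt the median was -0.01, with KLF10 (-0.19) and KLF6 (-0.09) lowest and IER3 (0.19) and IER2 (0.12) highest.

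Genes known as AP-1 targets split widely in S473D. Of 38 listed 33 passed the filter, with 14 above and 19 below 0 and a median of -0.13. The 5 that were 1.5-fold higher than wt were MMP1 (1541 RPKM in S473D against 279 in wt, 2.46), SERPINB2 (27.8 against 5.79, 2.09), SPP1 (5.21 against 1.19, 1.5), MMP3 (11.8 against 4.75, 1.16) and IL1A (19.3 against 10.6, 0.80). The 5 that were 1.5-fold lower were MMP9 (0.660 RPKM in S473D against 2.7 in wt, -1.16), TGFB1 (10.3 against 17.7, -0.73), HBEGF (30.1 against 48.7, -0.68), VEGFA (39.2 against 62.8, -0.67) and PLAU (212 against 321, -0.59). SPP1, IL1A, MMP9, VEGFA, PLAU and the kinase gene RPS6KA2 were named after their values were seen. The share of targets 1.5-fold higher, 5 of 33, and lower, 5 of 33, can be set beside 6.83% and 3.23% of all genes, and the list was drawn up with the MMP1 and SERPINB2 results known. In S473A against wt the targets had a median of -0.02, with MMP1 (-0.54) and MMP3 (-0.36) lowest and CCL2 (0.88) and FSCN1 (0.19) highest.

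Targets of small MAF dimers with NFE2L2, which respond to oxidants, had 4 of 14 above 0 and 10 below in S473D against wt (median -0.09), near the median of -0.10 for all genes, of which 60.7% were below 0. TXN, the thioredoxin gene, was at 431 RPKM in S473D against 202 in wt (1.09, or 0.38 with the trends removed), and NQO1, a quinone reductase gene, at 48.5 against 29.3 (0.71). GSR stood at -0.57 and the ferritin gene FTH1 at -0.53 (-0.89 with the trends removed). In S473A NQO1 stood at 0.28, GCLM at 0.14, TXN at -0.03 and FTH1 at -0.04.

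**Figure D5:**
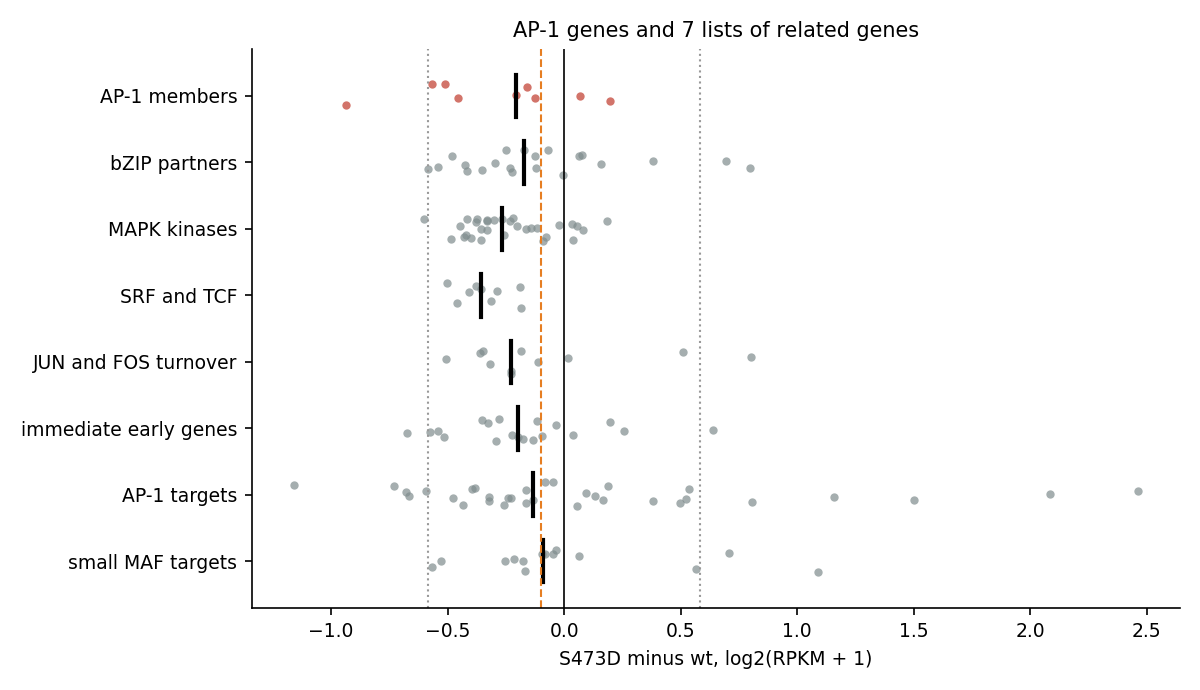
Difference of log2(RPKM + 1), S473D minus wt, for the AP-1 genes and 7 lists of related genes, 1 point per gene, with a black bar at each median; the dashed line is the median of all genes and dotted lines mark 1.5-fold. The AP-1 members have a median of -0.20, and the AP-1 targets spread from -1.16 for MMP9 to 2.46 for MMP1.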

How the data were processed

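Total RNA was extracted with TRIzol and sequenced on Illumina libraries, per the labels' protocols, with 1 library per KAP1 form grouped by title. Bowtie, Partek and hg19 are named in the submitters' processing notes, while their versions, the annotation and the counting rule are not given in those sources. The deposited file holds log2 values of RPKM made by the authors, and since its lowest value is the log2 of 0.1, an added 0.1 was removed to recover RPKM. Of 19076 lines, 27 with date-like or repeated symbols were left out. Genes averaging 1 RPKM or more were kept, without 177 short RNAs, which left 11571. Differences were taken on log2(RPKM + 1), which understates those of low genes.

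Depth was estimated from 2683 low genes and transcript lengths of GENCODE release 29, where 47.5% of low values were within 2% of a whole read number. Depths, read numbers and intervals are therefore estimates, and the values were not tested as counts. Length and GC content were known for 93.2% of genes kept, and trends on them were removed by lowess (fraction 0.2, 2 rounds). The calculation was tested on simulated data. The members and lists were chosen with earlier results of these data known. All members were named, and from each list the 2 highest and 2 lowest differences from wt among genes averaging 5 RPKM or more. 1 gene that this rule names is not reported here. The 5 genes nearest to the highest and to the lowest member were named too. Genes listed but not in these counts were not analysed here. Alternatives were other pseudocounts, filters, scalings, trend removal and members left out. Python 3.11.15, numpy 2.4.6, pandas 2.3.3, scipy 1.17.1 and statsmodels 0.14.6 were used.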

Additional observations from a re-analysis of the deposited data

How the results depend on the processing

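No paired analysis was possible because each group has 1 library. In S473D against wt and against S473A, FOSL2, JUN, FOSL1 and JUND were below 0 with centring, a trimmed mean of log ratios and trend removal. The other alternatives for single genes were pseudocounts of 0.1 and 0.5, no filter and a mean of at least 5 RPKM. Those cannot change the sign of a difference, and the filters leave its value as it was. FOSL2 ran from -0.97 to -0.64 against wt and from -0.89 to -0.58 against S473A, JUN from -0.57 to -0.40 and from -0.60 to -0.42, FOSL1 from -0.63 to -0.40 and from -0.60 to -0.39, and JUND from -0.49 to -0.35 and from -0.54 to -0.41. The count of members 1.5-fold apart from wt in S473D was 2 with the trends removed and 0 without FOSL2. Against S473A it was 1, instead of 2, with centring, with the trimmed mean, with the trends removed (where FOSL1 was the one past 1.5-fold) and without FOSL2. Of all genes in S473D against S473A, 1.12% were 1.5-fold lower and 9.77% higher with centring. With the trimmed mean 1.2% were lower and 9.91% higher. With the trends removed, 3.38% of the genes with a transcript were lower and 1.6% higher. The members' median against wt was -0.45, and against S473A -0.50, both with a mean of at least 5 RPKM and without MAFF and MAFK, since low or near-wt genes then leave the list. Without FOSL2, FOSL1 made 98.8% of FOS family RPKM in S473D, 99.2% in S473A and 99.2% in wt. Depth limits FOSB and FOS, and 1 library per group limits every comparison.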
